A study of Mus musculus with 5 samples.

Results

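The expression of 10 imprinted genes that regulate growth, H19, Igf2, Cdkn1c, Peg3, Meg3, Mest, Plagl1, Dlk1, Grb10 and Peg10, was measured in the neural tubes of EpoR-null and control mouse embryos. The genes were taken by symbol from a list of well known imprinted growth regulators, and all 10 were found among the 23284 gene symbols counted and passed the filter on low counts. The neural tube is the embryonic tissue that gives rise to the brain and spinal cord, and EpoR encodes the receptor of erythropoietin, the cytokine that drives red blood cell production. Polyadenylated RNA was sequenced from 5 samples labelled E8.5 (the study's methods give E9.0), bred from EpoR+/- parents: 2 wild type (EpoR+/+), 1 heterozygote (EpoR+/-) and 2 EpoR-null (EpoR-/-). No treatment is stated, the strain is not given in the sources used here, and whether a sample held 1 neural tube or several is not stated either. The control group joined the wild type samples and the heterozygote (n = 3). The study calls its controls littermates, but which samples shared a litter is not stated.

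Imprinted genes are expressed mainly from 1 parental allele, which is set by DNA methylation laid down in the egg or the sperm. Many of them control how large the embryo and placenta grow: genes read from the paternal allele often favour growth and genes read from the maternal allele often restrain it. Of the genes measured here, Igf2, Peg3, Mest, Plagl1, Dlk1 and Peg10 are mainly paternally expressed, and H19, Cdkn1c, Meg3 and, outside neurons, Grb10 are mainly maternally expressed. A read count adds both alleles, so the levels below are totals and do not show from which allele a transcript came.

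Promoter sequence is shown for the 3 genes with a window whose EpoR-null samples were both below the controls (Peg3, Plagl1 and Grb10) and for Dlk1, whose EpoR-null samples lay far apart, because CpG sites near the start can carry the methylation of an imprint. Windows of 300 bases (250 before to 50 after an annotated start, RefSeq, GRCm38.p6) were found for 7 of the 10 genes, 14 windows in all. CpG dinucleotides, the sites of DNA methylation, are in capitals, and each sequence is written 5′ to 3′ on the strand of its gene. The windows lie at chr7:6730370-6730669 (Peg3, minus strand), chr10:13090582-13090881 (Plagl1, plus strand), chr11:12037371-12037670 and chr11:12027922-12028221 (both Grb10, minus strand) and chr12:109452573-109452872 (Dlk1, plus strand).
Peg3: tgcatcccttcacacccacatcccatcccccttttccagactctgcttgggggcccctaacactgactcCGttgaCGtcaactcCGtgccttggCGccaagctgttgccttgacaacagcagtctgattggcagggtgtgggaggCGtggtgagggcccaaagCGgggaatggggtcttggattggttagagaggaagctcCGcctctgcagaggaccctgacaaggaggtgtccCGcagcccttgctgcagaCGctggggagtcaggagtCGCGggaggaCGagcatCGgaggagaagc
Plagl1: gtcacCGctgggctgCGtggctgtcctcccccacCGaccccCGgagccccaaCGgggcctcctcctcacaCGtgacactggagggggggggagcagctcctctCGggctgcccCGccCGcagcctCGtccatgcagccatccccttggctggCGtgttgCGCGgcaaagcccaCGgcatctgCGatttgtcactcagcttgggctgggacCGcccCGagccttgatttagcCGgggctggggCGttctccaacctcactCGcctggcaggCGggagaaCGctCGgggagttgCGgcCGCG
Grb10, upstream start: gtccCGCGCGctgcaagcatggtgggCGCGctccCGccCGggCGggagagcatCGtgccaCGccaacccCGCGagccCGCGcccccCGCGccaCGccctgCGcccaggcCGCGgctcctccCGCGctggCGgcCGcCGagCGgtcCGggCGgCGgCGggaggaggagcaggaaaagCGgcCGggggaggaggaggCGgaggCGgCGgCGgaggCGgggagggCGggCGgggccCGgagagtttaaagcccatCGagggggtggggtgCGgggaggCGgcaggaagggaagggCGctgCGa
Grb10, downstream start: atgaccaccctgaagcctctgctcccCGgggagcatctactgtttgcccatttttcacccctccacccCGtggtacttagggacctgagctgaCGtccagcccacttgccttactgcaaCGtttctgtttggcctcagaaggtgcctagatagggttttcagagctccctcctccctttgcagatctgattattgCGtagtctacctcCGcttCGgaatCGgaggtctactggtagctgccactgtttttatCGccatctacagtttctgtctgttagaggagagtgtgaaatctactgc
Dlk1: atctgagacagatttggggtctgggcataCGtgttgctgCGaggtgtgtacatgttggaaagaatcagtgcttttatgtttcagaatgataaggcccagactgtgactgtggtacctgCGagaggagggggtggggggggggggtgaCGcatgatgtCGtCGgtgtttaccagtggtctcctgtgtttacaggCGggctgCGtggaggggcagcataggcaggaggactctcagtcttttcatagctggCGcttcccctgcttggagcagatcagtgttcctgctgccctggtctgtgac
The upstream Grb10 window held 45 CpG and the downstream one 9, against a median of 7 over the 32851 windows of all genes. Plagl1 held 26 CpG, Peg3 13 and Dlk1 9. The motifs GCCATNTT (YY1), GCGCATG (a part of the NRF1 motif) and TTCNNNGAA (STAT5), searched on both strands, were in none of the 14 windows. They were in 6.05%, 3.91% and 8.3% of all windows, and their absence says only that these letters are not in these stretches.

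For Peg10, which came from a retrotransposon, the stretch around its slippery site is shown, because that site lets ribosomes shift frame and make a longer protein from the same RNA. The site GGGAAAC, in capitals, was found in 2 of the 3 Peg10 transcripts of GENCODE M21 and begins at base 1477 of the longest, which is 6667 nt long.
Peg10: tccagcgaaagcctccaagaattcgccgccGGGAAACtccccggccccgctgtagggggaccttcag

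Reads counted on genes ranged from 19316126 to 41169218 per sample, so that 3 reads amount to 0.0715 to 0.152 CPM (the reads of a gene relative to the TMM-scaled total of its library). Epor itself was at 2.35 and 1.62 CPM in the wild type samples, at 0.476 CPM in the sample labelled heterozygote and at 0.354 and 0.669 CPM in the EpoR-null samples. The sample labelled heterozygote therefore lay between the EpoR-null samples for Epor, with an exact 95% interval of 0.237 to 0.851 CPM that covers counting error only. The same sample stood apart in markers of tissues next to the neural tube. The labelled tissue was seen in every sample. Neural progenitor markers (6 genes) summed to 1361 and 1358 CPM in wild type and 1566 CPM in the sample labelled heterozygote. In the EpoR-null samples they summed to 1417 and 1201 CPM. Nes was the largest part of each sum, at 635, 579 and 738 CPM in the controls and 777 and 368 CPM in the EpoR-null samples. Sox1, Sox2 and Pax6 were lowest in EpoR-null 1, but Sox3, Nes and Hes5 were not. Sox2 was at 272, 277 and 309 CPM in the controls and 220 and 266 CPM in the EpoR-null samples. Pax6 was at 168, 195 and 189 CPM in the controls and 144 and 198 CPM in the EpoR-null samples. For H19, Igf2, Mest and Dlk1, which were lowest in it, values without it are given below.

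Of the 10 genes, 2 were lower in the EpoR-null neural tubes and 0 were higher in the exact test of edgeR (thresholds of p < 0.001 with FDR < 0.05), while 4.77% of the 12703 genes tested passed these thresholds (3.84% lower, 0.929% higher). The 2 genes were Peg10 and Peg3. Grb10 passed the FDR threshold alone and was also lower, which made 3 of 10 genes lower and 0 higher at FDR < 0.05, beside 7.31% of all genes (5.49% lower, 1.81% higher). Both EpoR-null samples lay below all 3 controls for Peg3, Plagl1, Grb10 and Peg10, as for 22.1% of all genes, and above all controls for none of the 10, against 21.2%. The median log2 fold change of the 10 genes was 0.09, beside 0.06 over all genes, with 5 values below and 5 above 0.

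**Figure D1:**
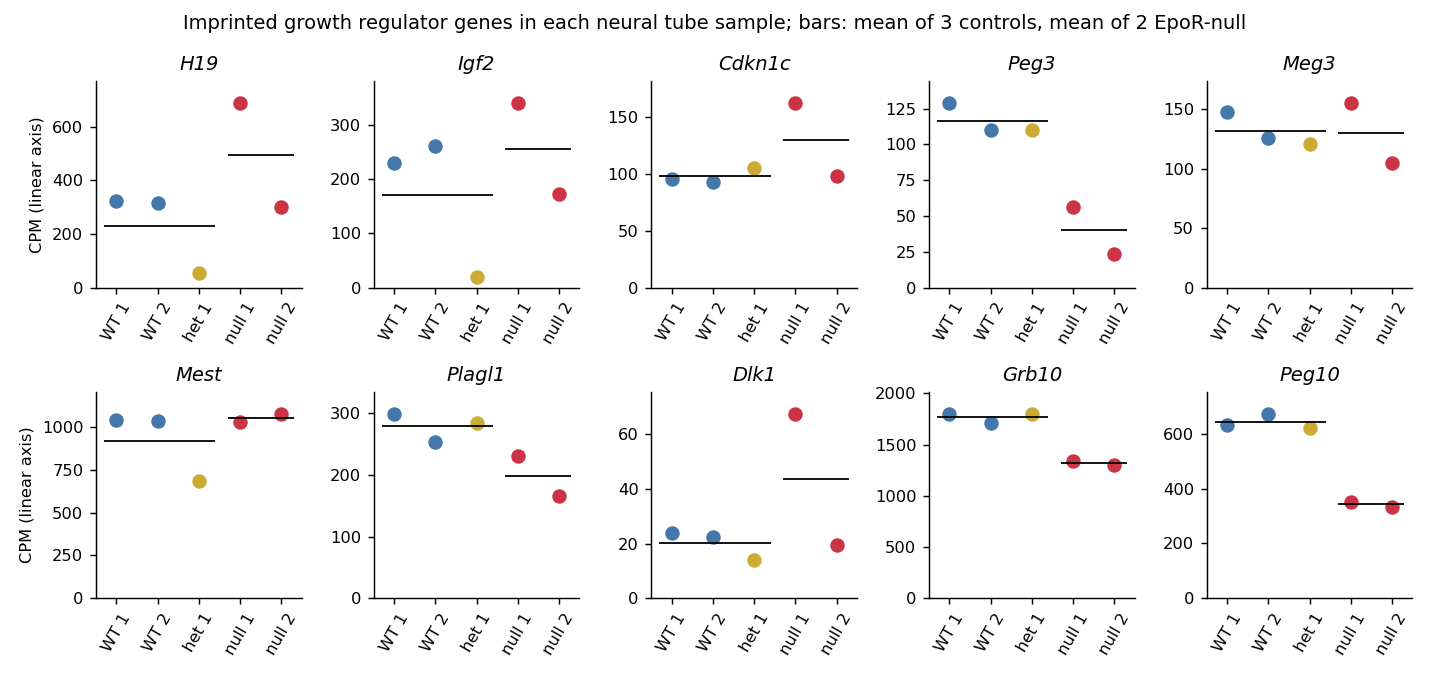
Level of each of the 10 imprinted genes in each sample, in CPM on a linear axis from 0 (WT, wild type in blue; het, heterozygote in yellow; null, EpoR-null in red); bars are the means of the 3 controls and of the 2 EpoR-null samples. Peg10, Peg3, Plagl1 and Grb10 have both EpoR-null points below all controls, and H19 and Igf2 have their lowest point in the sample labelled heterozygote.

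**Figure D2:**
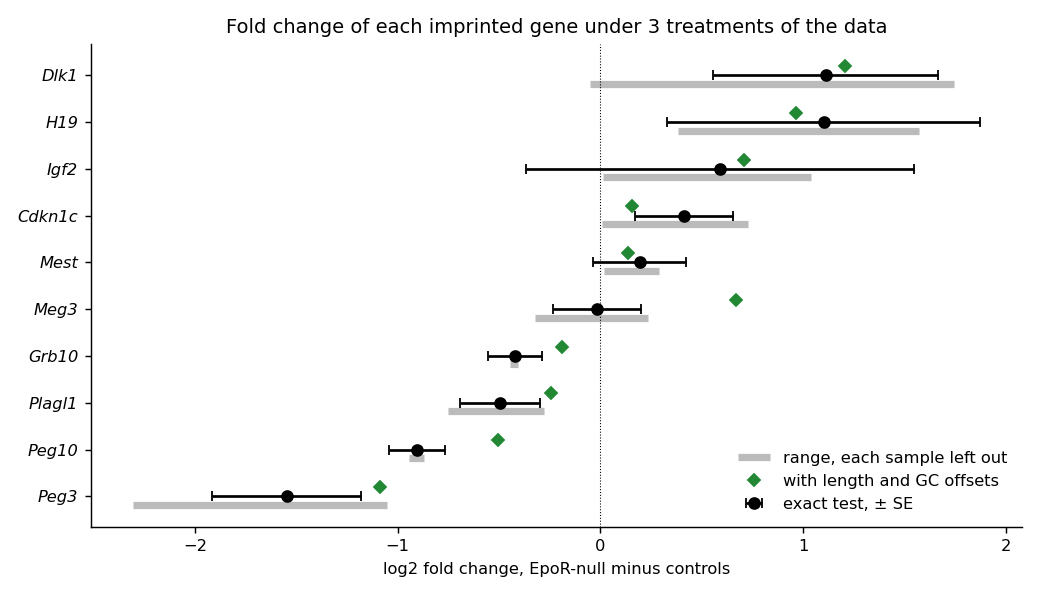
The log2 fold change of each gene, EpoR-null minus controls: black points with bars of 1 standard error are from the exact test, grey bars are the range with each sample left out in turn, and green diamonds are values with length and GC offsets. Peg3 (-1.55) and Peg10 (-0.90) are past both thresholds, the grey bar of Dlk1 crosses 0, and the diamond of Meg3 (0.67) lies far from its point.

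Peg10 had the smallest p-value of the 10 genes. Its level was 633 and 674 CPM in the wild type samples and 622 CPM in the sample labelled heterozygote, against 353 and 335 CPM in the EpoR-null samples. Both groups were tight and did not overlap: 643 ± 27.3 CPM in the controls (SD, n = 3) and 344 ± 12.9 CPM in the EpoR-null samples (SD, n = 2). The mean was 1.87-fold lower in EpoR-null samples (log2 fold change -0.90 with a standard error of 0.137, FDR = 1.07e-07 in the exact test of edgeR). With any of the 5 samples left out, the log2 fold change of Peg10 stayed between -0.94 and -0.87. Where an EpoR-null sample is left out, here and below, the group is 1 sample whose spread is taken to be that of the controls, so the value is given without a test.

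Peg3, a zinc finger protein expressed in the embryo and brain, differed by more but varied more between the EpoR-null samples. Controls were at 129, 110.1 and 110.4 CPM (wild type 1, wild type 2 and heterozygote), and the EpoR-null samples were at 56.2 and 23.6 CPM. The groups did not overlap, and EpoR-null 1 was 2.39-fold above EpoR-null 2. The mean was 2.92-fold lower in the EpoR-null samples, 39.9 ± 23.1 CPM (SD, n = 2) against 116 ± 10.8 CPM (SD, n = 3). On the log2 scale this was a difference of -1.55 with a standard error of 0.368 (FDR = 0.00325, exact test of edgeR). Without wild type 1 the log2 fold change was -1.47 and the FDR 0.0893, so that the call was lost, and without EpoR-null 1 it was -2.3.

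Grb10 encodes an adaptor that binds the insulin and IGF1 receptors and restrains their signals. Its level was 1800 and 1710 CPM in the wild type samples and 1798 CPM in the sample labelled heterozygote. The EpoR-null samples were at 1339 and 1304 CPM, below every control. The difference of the means was -25.3%, small but larger than the spread within either group: 1769 ± 51.7 CPM (SD, n = 3) against 1321 ± 24.7 CPM (SD, n = 2). The log2 fold change was -0.42 (standard error 0.133), with FDR = 0.0312 and an unadjusted p = 0.00182 by edgeR's exact test, which missed the p-value threshold.

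Plagl1 encodes a zinc finger transcription factor that slows the cell cycle and acts on other imprinted genes. Controls were at 299, 254 and 285 CPM, and EpoR-null samples at 230.4 and 166 CPM. The EpoR-null samples were again below all controls, but Plagl1 did not pass either threshold (log2 fold change -0.50, standard error 0.198, FDR = 0.119, exact test of edgeR). Without EpoR-null 1, the sample nearer to the controls, the log2 fold change was -0.75.

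These 4 genes have long transcripts, and in these libraries long transcripts were lower in the EpoR-null samples in general. Here and below, the longest transcript of a gene is the longest one linked to RefSeq, or the longest of all where none is linked. It is 8694 nt for Peg3, 6667 nt for Peg10, 5260 nt for Plagl1 and 5061 nt for Grb10. In the longest of 5 equal classes of tested genes (5151 nt and over) the median log2 fold change was -0.36 and 15.6% were lower past both thresholds. In the shortest class (up to 1795 nt) the median was 0.38 and 0.278% were lower. Peg3, Peg10, Plagl1 and Meg3 fall in the longest class, Grb10, Igf2 and Dlk1 in the next, and H19, Cdkn1c and Mest in the second shortest.

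With the trend on transcript length and GC content of each sample removed (likelihood-ratio test of edgeR with offsets, which called 1.79% of 12586 genes), Peg3 kept its call with a log2 fold change of -1.09 and FDR = 0.00661. Peg10 was at -0.50 with FDR = 0.0873 and lost its call. Grb10 was at -0.19 (FDR = 0.939) and Plagl1 at -0.24 (FDR = 0.774). The same likelihood-ratio test without offsets called 4.9% of these genes, and all values of this paragraph are differences between groups, not levels.

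**Figure D3:**
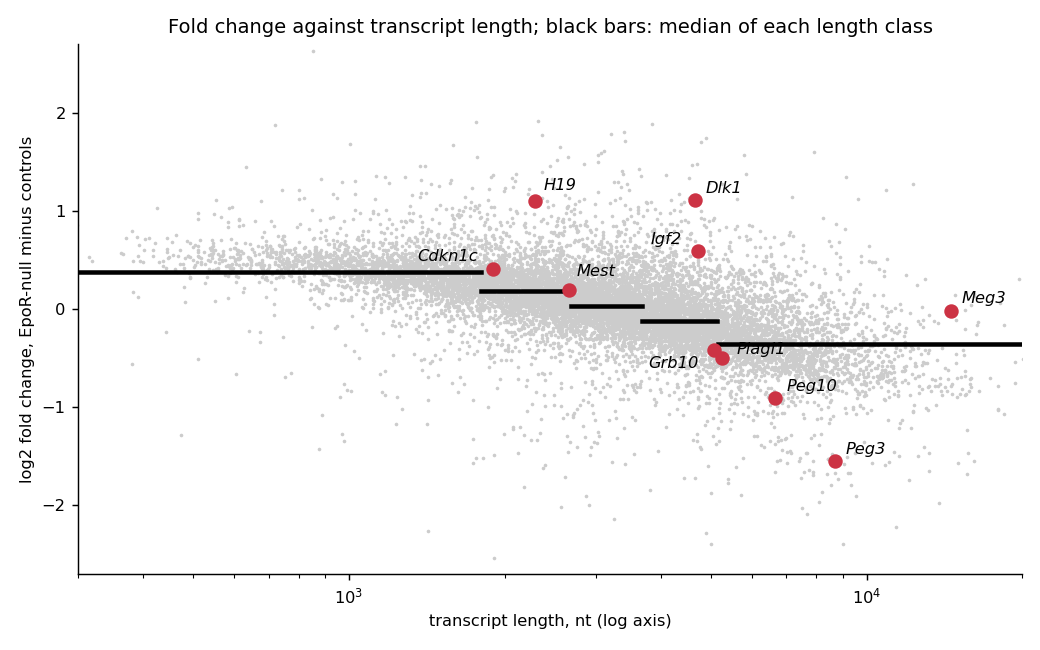
The log2 fold change, EpoR-null minus controls, of each tested gene against transcript length in nt (log axis), with the 10 imprinted genes in red. Length is that of the longest transcript linked to RefSeq, or of the longest where none is linked. Black bars give the median of 5 length classes, which goes from 0.38 in the shortest to -0.36 in the longest class; Peg3 and Peg10 lie below the bar of their class.

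Cdkn1c encodes p57, an inhibitor of cyclin dependent kinases that stops the cell cycle. It was level in the controls, at 95.9 and 93.2 CPM in wild type and 105 CPM in the sample labelled heterozygote, and was at 163 and 98.4 CPM in the EpoR-null samples. Only EpoR-null 1 was above the controls, and the gene did not pass the thresholds (log2 fold change 0.41, standard error 0.242, FDR = 0.338, exact test of edgeR). Without EpoR-null 2 the log2 fold change was 0.73 and without EpoR-null 1 it was 0.01, so that it rests on 1 sample.

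H19, a non-coding RNA, and Igf2, the growth factor of the fetus, are neighbours on chromosome 7 that share enhancers and are read from opposite alleles. H19 was at 322 and 315 CPM in wild type, 54.0 CPM in the sample labelled heterozygote, and 687 and 300.4 CPM in the EpoR-null samples. Igf2 was at 230.2 and 262 CPM in wild type, 19.4 CPM in the sample labelled heterozygote, and 340.3 and 173 CPM in the EpoR-null samples. For both genes the sample labelled heterozygote was lowest and EpoR-null 1 highest, and the groups overlapped. The sample labelled heterozygote was at 17% of the wild type mean for H19 and at 7.87% for Igf2.

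The log2 fold changes were 1.10 for H19 (standard error 0.771, FDR = 0.438, exact test of edgeR) and 0.59 for Igf2 (standard error 0.957, FDR = 0.771). Neither passed a threshold, and both values rest on single samples. Without the sample labelled heterozygote they were 0.63 for H19 and 0.06 for Igf2, and without EpoR-null 1 they were 0.38 and 0.02. The ratio of Igf2 to H19 in CPM was 0.716 and 0.833 in wild type and 0.359 in the sample labelled heterozygote, while the EpoR-null samples were at 0.495 and 0.576. Both EpoR-null ratios were below both wild type ratios, and the groups overlapped only through the sample labelled heterozygote (exact permutation test, two-sided p = 0.8, where the smallest p possible with 2 against 3 samples is 0.1).

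Dlk1, a membrane protein of the Notch ligand family that holds back differentiation, was at 24.0 and 22.4 CPM in wild type, 13.9 CPM in the sample labelled heterozygote, and 67.5 and 19.5 CPM in the EpoR-null samples. EpoR-null 1 was 3.47-fold above EpoR-null 2, which lay within the control range. The log2 fold change of 1.11 (standard error 0.555) did not pass the thresholds (FDR = 0.227, exact test of edgeR). Without EpoR-null 2 it was 1.74 and without EpoR-null 1 it was -0.05, so that it rests on 1 sample, and without the sample labelled heterozygote it was 0.90.

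Mest, a hydrolase-like protein first found in embryonic mesoderm, was at 1042 and 1035 CPM in wild type, 685 CPM in the sample labelled heterozygote, and 1029 and 1077 CPM in the EpoR-null samples. Only the sample labelled heterozygote stood apart, and Mest passed no threshold (log2 fold change 0.19, standard error 0.231, FDR = 0.686, exact test of edgeR). Without that sample the log2 fold change was 0.02.

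Meg3, the non-coding RNA of the Dlk1 locus, was the least changed of the 10 in the exact test of edgeR. It was at 148 and 126 CPM in wild type, 121 CPM in the sample labelled heterozygote, and 155 and 105 CPM in the EpoR-null samples, a log2 fold change of -0.02 with a standard error of 0.218 (FDR = 0.985). With length offsets its value depended on the transcript chosen. The longest transcript, 14548 nt, gave 0.67 (FDR = 0.00266, past both thresholds and higher), and the shortest one linked to RefSeq, 1896 nt, gave -0.23 (FDR = 0.9996).

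H19, Igf2, Mest and Dlk1 were lowest in the sample labelled heterozygote, as were 16.9% of all tested genes. Markers of tissues that adjoin the neural tube were low in the same sample. Paraxial mesoderm markers (8 genes) summed to 45.0 and 41.9 CPM in wild type, 9.94 CPM in the sample labelled heterozygote, and 86.8 and 30.9 CPM in the EpoR-null samples. Markers of other mesenchyme (7 genes) summed to 182 and 155 CPM in wild type, 18.5 CPM in the sample labelled heterozygote, and 339.9 and 74.7 CPM in the EpoR-null samples. For both lists the sample labelled heterozygote was lowest and EpoR-null 1 highest, the order seen for H19, Igf2 and Dlk1. Endothelial markers (6 genes) in the sample labelled heterozygote were at 5.29% of the wild type mean and primitive erythroid markers (6 genes) at 5.2%, while neural progenitor markers were at 115%. In EpoR-null 1 the paraxial mesoderm, mesenchyme, endothelial and erythroid sums were at 200%, 201%, 105% and 201% of the wild type mean, and in EpoR-null 2 at 71.2%, 44.2%, 55.8% and 114%. In the sample labelled heterozygote the markers of neural crest were at 42.8%, of surface ectoderm at 29.3%, of notochord at 66.7%, of trophoblast at 71.2% and of endoderm at 95.1%. Shh and Foxa2, which the ventral neural tube also expresses, carry most of the notochord and endoderm sums. In the notochord list, T was at 6.82 and 10.9 CPM in wild type and 0.519 CPM in the sample labelled heterozygote. Shh (35.3, 45.7 and 31.5 CPM) and Foxa1 (5.87, 6.48 and 5.19 CPM) differed less between the same samples. In the endoderm list, Sox17 was at 3.35 and 5.17 CPM in wild type and 0.259 CPM in the sample labelled heterozygote. Foxa2 went the other way, at 18.8 and 19.9 CPM in wild type and 22.2 CPM in the sample labelled heterozygote. The remaining genes of both lists were below the filter on low counts.

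Of the 23 mesodermal, endothelial and erythroid markers that were tested, 22 were lowest in the sample labelled heterozygote and 19 highest in EpoR-null 1. The marker not lowest there was Uncx, at 0.634 CPM in EpoR-null 2 and 1.25 CPM in the sample labelled heterozygote. Tbx6 of the paraxial mesoderm list, below the filter on low counts, was highest in the sample labelled heterozygote (21 reads, 0.908 CPM). None of the 43 markers of any tissue passed both thresholds between EpoR-null and controls. The defining trophoblast markers Tpbpa and Prl3d1 had 0 reads in every sample, and the endoderm markers Ttr and Afp had at most 6 reads in any sample. In the mesenchyme list Osr1 and Hand2 had 11 reads or fewer in every sample, and Hba-a1 of the erythroid list had 0 reads throughout. The part of these tissues in the levels of H19, Igf2, Dlk1 and Mest was not tested. In RNA from whole tissue, fewer cells of a type and less RNA per cell cannot be told apart.

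**Figure D4:**
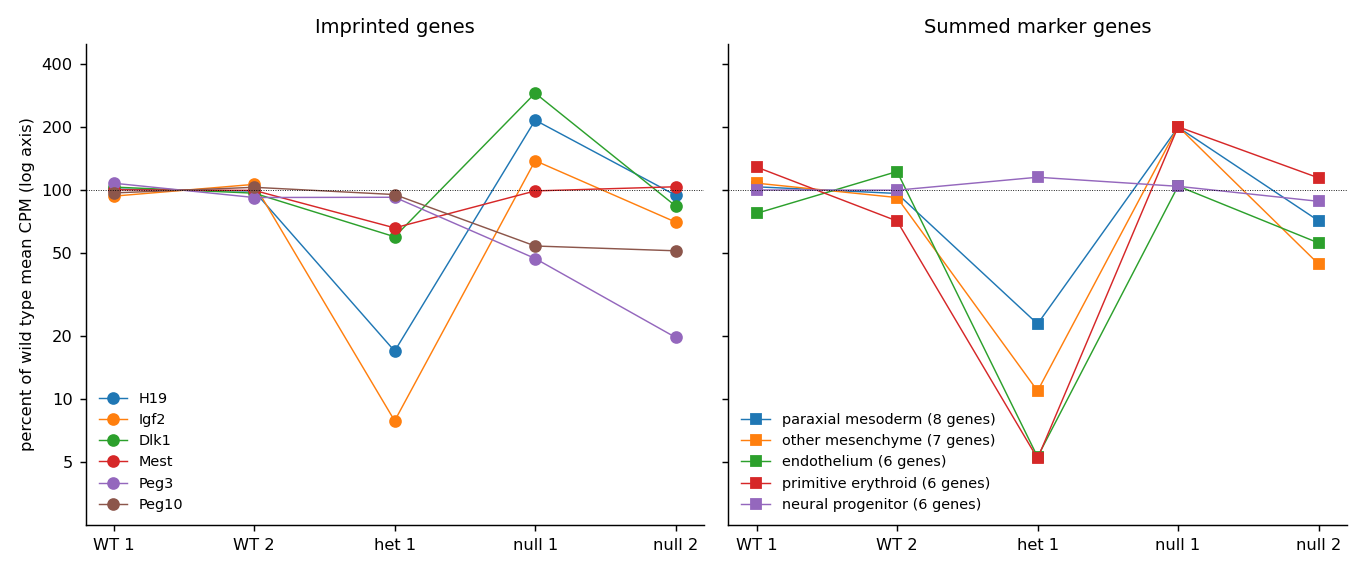
Levels in each sample as percent of the wild type mean (log axis), for 6 imprinted genes on the left and for summed markers of 5 tissues on the right; lines only join the points of a gene or list. H19 (17%) and Igf2 (7.87%) are low in the sample labelled heterozygote, as are the mesodermal, endothelial and erythroid sums, while Peg3 and Peg10 are low in both EpoR-null samples.

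Imprinted genes lie in clusters, and the neighbours of each gene were compared with it. Peg10 shares a promoter region with Sgce, which is read in the other direction from the same paternal allele. Sgce was at 28.0 and 25.7 CPM in wild type, 28.1 CPM in the sample labelled heterozygote, and 33.1 and 27.3 CPM in the EpoR-null samples, a log2 fold change of 0.15 (FDR = 0.723, exact test of edgeR). The ratio of Peg10 to Sgce in CPM was 22.6, 26.2 and 22.1 in the controls and 10.6 and 12.3 in the EpoR-null samples. The ratio was lower in both EpoR-null samples than in any control, with the smallest p that an exact permutation test can give here, 0.1. The longest Sgce transcript is 1776 nt, so the pair also differs in length. On the other side of Peg10, Ppp1r9a, which encodes an actin binding protein of neurons and has a transcript of 9547 nt, was lower too. It was at 61.4, 52.9 and 57.8 CPM in the controls and 40.4 and 29.5 CPM in the EpoR-null samples (log2 fold change -0.72, FDR = 0.0128, exact test of edgeR). With length and GC offsets the log2 fold change of Ppp1r9a was -0.15 (FDR = 0.9995) and it was not called. The ratio of Peg10 to Ppp1r9a was 10.3, 12.7 and 10.8 in the controls and 8.74 and 11.3 in the EpoR-null samples. For this ratio the groups overlapped (exact permutation test, p = 0.5).

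Around Peg3, the genes Usp29 and Zim1 were at 2.17 CPM or less in every sample and did not differ past the thresholds (FDR = 0.793 and 0.798, exact test of edgeR). The ratio of Usp29 to Peg3 was 0.0138, 0.0186 and 0.0141 in the controls and 0.0386 and 0.0224 in the EpoR-null samples. It too was at the smallest p of the exact permutation test, 0.1, with Usp29 at 15 to 86 reads. In the Dlk1 and Meg3 cluster, the non-coding RNA Rian was at 208.8, 194 and 179 CPM in the controls and 235 and 182 CPM in the EpoR-null samples. Its log2 fold change was 0.10 (FDR = 0.804). Mirg, a further non-coding RNA there, was at 0.70 (FDR = 0.0945). The ratio of Dlk1 to Meg3 was 0.163, 0.178 and 0.115 in the controls and 0.436 and 0.185 in the EpoR-null samples. Its p was again the smallest the exact permutation test allows, 0.1, and only the order of the samples is needed to reach it. EpoR-null 2 was barely above wild type 2, so this ratio, like the level of Dlk1, rests mainly on EpoR-null 1. Near Cdkn1c, the non-coding RNA Kcnq1ot1 was at -0.08 (FDR = 0.937), and beside Mest, Copg2 was at 0.03 (FDR = 0.937). The ratios of Rian to Meg3 and of Mest to Copg2 overlapped between the groups (exact permutation tests, p = 0.3 and 0.7).

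**Figure D5:**
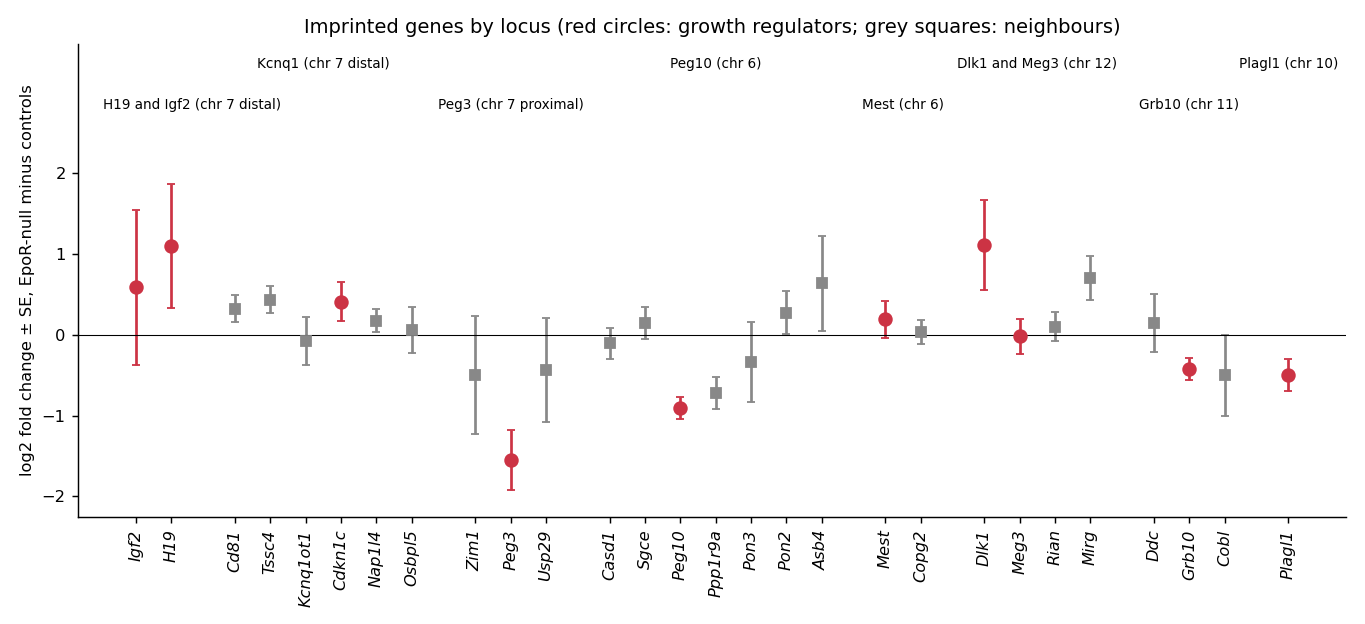
The log2 fold change with 1 standard error of the 10 imprinted genes (red circles) and of their tested neighbours (grey squares), EpoR-null minus controls, grouped by locus in no scale of distance. Peg10 (-0.90) lies below its neighbour Sgce (0.15) and Peg3 below Usp29 and Zim1, whose bars cross 0.

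Levels of the 10 genes were also set side by side after division by transcript length. Mean CPM per kb over the 5 samples was 365 for Mest, 314 for Grb10, 147 for H19, 78.5 for Peg10, 58.4 for Cdkn1c, 46.9 for Plagl1 and 43.4 for Igf2. It was 9.87 for Peg3, 9 for Meg3 and 6.33 for Dlk1. The ranges of neighbours in this order, over all 5 samples, overlapped for every pair. These ranges join both groups, so they are not the spread between replicates. In the controls Peg10 (94.9, 101 and 93.3) was above Cdkn1c (50.5, 49 and 55.3) throughout. Mest with Grb10, H19 with Peg10, and Igf2 with Peg3 overlapped only through the sample labelled heterozygote. Grb10 and H19 overlapped only through EpoR-null 1. The value of Meg3 in particular rests on its longest transcript of 14548 nt.

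The genes with the pattern most like a given gene were found by the distance between log2 CPM values over the 5 samples, each centred on its own mean. For Igf2, which had the widest range of the 10 (4.13 on the log2 scale), the nearest were BC020535, Thsd1 and Scarf2, at distances of 0.266, 0.285 and 0.297. In all 3 the sample labelled heterozygote was lowest, for example Thsd1 at 0.951 CPM beside 10.7 and 14.7 CPM in wild type. For Grb10, which had the most reads of the 10 by mean CPM, they were Tnpo2, Rprd2 and Topbp1, at 0.0329, 0.036 and 0.0409. Topbp1 was at 306, 284 and 301 CPM in the controls and at 219 and 217 CPM in the EpoR-null samples. This is a description over 5 samples, with many genes to choose from.

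Among 45 other imprinted genes that were tested, of 64 found in the files, 2 were lower and 0 higher past both thresholds in the exact test of edgeR, 4.44% against 4.77% of all genes. The 2 were Ppp1r9a and Ube3a, the ubiquitin ligase that is maternally expressed in neurons. Ube3a was at 73.8, 56.1 and 74.8 CPM in the controls and 41.3 and 26.7 CPM in the EpoR-null samples (log2 fold change -1.01, FDR = 0.00584). With offsets its value depended on the transcript chosen (likelihood-ratio test of edgeR). The longest transcript, 9856 nt, gave -0.34 (FDR = 0.222, not called). Offsets from the shortest transcript linked to RefSeq gave -0.80 (FDR = 0.00169, past both thresholds). Nnat, a small membrane protein of the developing brain, passed the FDR threshold alone and was higher, at 221, 206 and 224 CPM in the controls and 419 and 272 CPM in the EpoR-null samples (log2 fold change 0.67, FDR = 0.0345). Its transcript of 1213 nt is in the shortest class, and with length and GC offsets Nnat was at 0.30 (FDR = 0.9995, likelihood-ratio test of edgeR). Without EpoR-null 1 the log2 fold change of Nnat was 0.33. The abundant Gnas and Nap1l4 did not pass (0.20, FDR = 0.439, and 0.17, FDR = 0.541). Of the 45 genes, 4 lay below and 12 above all controls in both EpoR-null samples, beside 22.1% and 21.2% of all genes. Their median log2 fold change was 0.10, beside 0.06 over all genes.

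Several of the 10 genes act on insulin-like growth factor signalling, so the genes of that pathway were counted as well. Of 19 tested, 2 were lower and 1 was higher past both thresholds, 15.8% against 4.77% of all genes, with a median log2 fold change of -0.14. Irs2, an adaptor of the insulin and IGF1 receptors, was at 34.5, 54.4 and 43.4 CPM in the controls and 13.9 and 19.4 CPM in the EpoR-null samples (log2 fold change -1.40, FDR = 2.01e-04, exact test of edgeR). Pappa, a protease that frees IGF from its binding proteins, was at 20.8, 26.1 and 24.2 CPM in the controls and 6.26 and 9.79 CPM in the EpoR-null samples (-1.56, FDR = 6.63e-05). Igfbp2, a binding protein of IGF2 and IGF1, was higher, at 76.6, 88.2 and 85.1 CPM in the controls and 143 and 116 CPM in the EpoR-null samples (0.64, FDR = 0.00286). The transcripts of Irs2 and Pappa (6323 and 11027 nt) fall in the longest class, where 15.6% of genes were lower past both thresholds. That of Igfbp2 (1307 nt) falls in the shortest class, where 4.25% were higher. With length and GC offsets Irs2 was at -1.12 (FDR = 0.0205, likelihood-ratio test of edgeR) and kept its call, while Pappa (-0.85, FDR = 0.535) and Igfbp2 (0.26, FDR = 0.9995) lost theirs. The receptors Igf1r (-0.39, FDR = 0.15) and Igf2r (-0.49, FDR = 0.269), the second itself imprinted, did not pass the thresholds.

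Of 22 tested genes that set or keep imprints, 1 passed both thresholds, 4.55% against 4.77% of all genes. At FDR < 0.05, 3 were lower and 0 higher, beside 5.49% and 1.81% of all genes. Both EpoR-null samples lay below all controls for 10 of the 22 and above them for 1, beside 22.1% and 21.2% of all genes. The median log2 fold change was -0.24, beside 0.06 over all genes and -0.36 in the longest class of transcripts. The gene past both thresholds was Smchd1, a chromatin protein needed for silencing at some imprinted clusters, at 202, 176 and 208 CPM in the controls and 135 and 118 CPM in the EpoR-null samples (log2 fold change -0.63, FDR = 0.00329, exact test of edgeR). The genes past the FDR threshold alone were Hells (-0.53, FDR = 0.0217), a chromatin remodeller, and Tet3 (-0.47, FDR = 0.0312), which oxidises methylated cytosine. The transcripts of Smchd1, Hells and Tet3 (7052, 5868 and 10904 nt) fall in the longest class. With length and GC offsets Smchd1 was not called (FDR = 0.9995). The part of length in the values of the other genes of this list was not tested. Trim28, the corepressor that guards imprints, was at 0.19 (FDR = 0.693). Cbx5, a heterochromatin protein, was at -0.36 (FDR = 0.103), and Uhrf1, which brings the maintenance methyltransferase to replicating DNA, was at -0.10 (FDR = 0.847).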

How the data were processed

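Polyadenylated RNA of 5 mouse neural tube samples was sequenced. Per the labels and the study's methods, the authors used Trimmomatic 0.32 for trimming, TopHat2 (2.1.0 in the submitters' processing notes) for alignment and HTSeq 0.6.1 for counts per gene. The deposited values are raw read counts of 23284 gene symbols, 1 table per sample, without normalization. The notes name mm9 and the methods name hg19. HTSeq leaves out reads that overlap more than 1 gene, and the strand setting is not given in the sources used here, so overlapping and antisense transcripts at imprinted loci cannot be told apart. The 5 summary lines of each table were left out of the gene counts and tests. Reads outside genes, taken from these lines, were 8.11% to 11% of those on genes, outside genes or on several genes.

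Samples were grouped by the labels. The software was edgeR 4.0.16, DESeq2 1.42.0 and limma 3.58.1 under R 4.3.3. Following the study's choice of test, the comparison of 2 EpoR-null samples and 3 controls used TMM normalization, tagwise dispersions and edgeR's exact test, with Benjamini-Hochberg adjustment (FDR) over all genes and thresholds of p < 0.001 and FDR < 0.05. The filter was set here: CPM over 1 in 2 or more samples, which left 12703 genes, with a biological coefficient of variation of 0.232. Log2 CPM used a prior count of 2. Transcript lengths, GC content and chromosomes came from GENCODE M21 (GRCm38), matched by symbol for 99.1% of tested genes. Offsets were loess trends (span 0.5) of each sample. Counts of every pair of samples differed by more than sampling noise (lowest chi-square per degree of freedom 11.9). Nothing states that samples of a group came from separate litters, so p-values measure the spread between these samples. The exact test, the quasi-likelihood F-test, the likelihood-ratio test without and with offsets, and DESeq2 were run on simulated data with known changes. The fits with the block, the offsets from the shortest transcript and the permutation test were not.

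The 10 genes, the other lists and the tests were chosen with earlier results of these data known. The text names all 10 genes, genes of each list past both thresholds, the 3 most abundant of a list where fewer than 3 passed, Epor, and the 3 genes nearest in pattern to the widest ranging and to the most abundant of the 10. Neighbours in a locus, Igf1r, Igf2r, Hells and Tet3 and markers named singly were named beside these after their values were seen. Alternatives were edgeR's quasi-likelihood F-test without and with the replicate number as a block, DESeq2, RLE factors, library size only, no filter, 10 reads in every sample, the likelihood-ratio test without and with offsets and with both offsets and block, and each sample left out. The likelihood-ratio test with the block alone and offsets from the shortest transcript linked to RefSeq were added after the data were seen.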

Additional observations from a re-analysis of the deposited data

How the results depend on the processing

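Over 17 alternatives (15 set at the start and 2 added after the data were seen), the 10 genes gave 170 values, of which 151 kept the direction and the side of the thresholds, 6 lost a call, 6 gained one in the same direction and 7 turned direction. Of the 7, 2 were Meg3 with offsets, without and with the block, which were also past both thresholds. Peg3 and Peg10 were each called in 14 of the 17 and Grb10 in 3. The quasi-likelihood F-test of edgeR called 0 of the 10 genes and 0 of all genes (lowest FDR 0.059), although 3052 genes, 4 of the 10 among them, had an unadjusted p under 0.05. DESeq2 called 1028 genes. Library size only left 1 other imprinted gene past the thresholds, as against 2. The likelihood-ratio test with length and GC offsets called 225 genes, Peg3 (lower) and Meg3 (higher) among them. Offsets from the shortest transcript gave 280 genes and 1 of the 10, Peg3.

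Samples left out in turn gave 115 to 2296 genes in all, 1 to 4 of the 10 genes and 0 to 6 of the other imprinted genes. Without wild type 1 only Peg10 was called. Where an EpoR-null sample is left out the lone other one is taken to vary like the controls, which alone give the spread, so calls there have no replicate check: Peg3, Plagl1 and Peg10 without EpoR-null 1, and Cdkn1c, Peg3, Dlk1 and Peg10 without EpoR-null 2. Meg3 ranged from -0.32 to 0.24 and Dlk1 from -0.048 (without EpoR-null 1) to 1.74 (log2 fold changes). Meg3, near 0 in the exact test, was at 0.67 with offsets. The cause of these shifts was not tested beyond the fewer samples in each.

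The study calls its controls littermates, and the main test does not pair the samples. The labels give wild type and EpoR-null samples numbers 1 and 2 without saying that these pair the samples. Across genes, the differences between wild type 1 and 2 correlated with those between EpoR-null 1 and 2 at 0.427 (log2 CPM). With the replicate number as a block, the quasi-likelihood F-test called 291 genes, 1 of the 10 (Peg10) and 1 other imprinted gene. The likelihood-ratio test with the block called 976 genes, and 279 with offsets too, where Peg3 and Peg10 were both called (FDR 0.00147 and 0.00299). Meg3 was at 0.01 under the block in both tests (0.00935 and 0.00951) and at 0.67 with offsets. The depth, 19316126 to 41169218 reads, gave each of the 10 genes at least 321 reads in every sample, so that with 2 EpoR-null samples the spread between samples limits the precision.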
